A study of Drosophila melanogaster with 4 samples.

Results

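The nub and pdm2 genes of Drosophila melanogaster are a pair of paralogues that encode POU-domain transcription factors. Enrichment of histone H3 trimethylated at lysine 27 (H3K27me3) over their locus is described here from 3 deposited lists of enriched regions. The members are all regions that overlap the stretch of arm 2L between 12.56 and 12.7 Mb, a window of 140 kb, in Release 5 of the fly genome, the build named in the file headers. They number 3 of the 5224 regions in the lists, that is 1 of 1486 in ChIP replicate 1, 1 of 1459 in ChIP replicate 2 and 1 of 2279 in a list for the series as a whole, called the series list below. Regions were taken by position, whatever their width or score, and the locus itself was picked with earlier results of these data known.

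The samples were 2 H3K27me3 ChIP libraries and their 2 input libraries, numbered 1 and 2, from whole embryos of the wild-type strain Oregon-R-modENCODE at 14 to 16 h of development. No mutant, treatment or second stage is part of the series. The antibody is given as H3K27Me3 (Abcam2). Whole embryos mix many cell types, so a region in these lists does not tell in which cells the mark lay, and a mark in some cells cannot be told apart from a weaker mark in all of them. Nothing in the labels says whether the replicates came from separate embryo collections.

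H3K27me3 is deposited by Polycomb repressive complex PRC2, whose catalytic subunit in flies is Enhancer of zeste, and it marks developmental genes that are held silent. In flies it typically spreads over long stretches around genes for transcription factors and signalling molecules. POU proteins bind DNA through a POU-specific domain together with a POU homeodomain. nub, also called pdm-1, is named after the stunted wings of its mutants and acts in wing and leg development. pdm2 acts together with nub in the embryonic nervous system, where both genes belong to the temporal series of transcription factors that neural stem cells express in turn, after Krüppel and before castor. Other POU-domain genes of the fly include vvl, acj6 and pdm3, which lie elsewhere in the genome and were not placed on these lists.

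In the RefSeq gene table at hand, which belongs to Release 6, nub and pdm2 are close neighbours on 2L. By the order of gene starts, Ref2 is the only gene between them. Nepl7, a neprilysin-like gene, and CCT4, which encodes a subunit of the cytosolic chaperonin, follow pdm2, and 5 long non-coding RNA genes in a row (lncRNA:CR42746, lncRNA:CR44598, lncRNA:CR44597, lncRNA:CR44596 and lncRNA:CR44595) precede nub. Because that table and the lists are on different builds, no gene start or end was set against a region, and which part of a region covers nub and which covers pdm2 was not measured. Likewise, the position of the window as the nub and pdm2 locus was taken as given.

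A single unbroken H3K27me3 domain filled most of the locus in each list. In the series list it ran from 12564710 to 12689918 on 2L, a width of 125 kb. In replicate 1 it ran from 12566286 to 12689761 (123 kb), and in replicate 2 from 12567465 to 12689735 (122 kb). All 3 regions lay wholly inside the window, and no list had another region there. Called sequence made up 89.4% of the window in the series list, 88.2% in replicate 1 and 87.3% in replicate 2, or 87.8% ± 0.61 over the replicates (SD, n = 2). The window bases outside every list, 14792 bp or 10.6%, lay at its 2 edges.

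The region's score is the authors' own value, and no source used here gives its scale or says whether that scale is the same in every list. Ranks are therefore given within a list, and differences of score between lists are given as plain values. It was 1.99 in the series list, 1.98 in replicate 1 and 2.03 in replicate 2, with a replicate mean of 2.01 ± 0.039 (SD, n = 2). The depth of the libraries is unknown, and no counting interval can be given for these values.

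**Figure D1:**
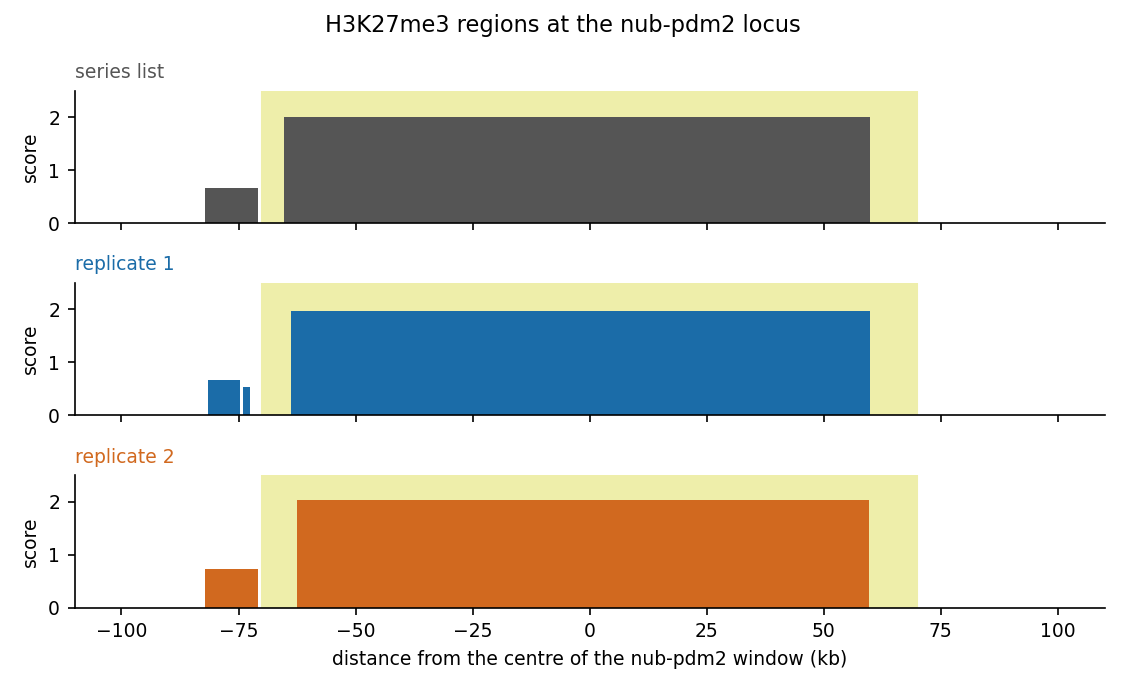
Enriched regions at the nub-pdm2 locus in the series list and the 2 ChIP replicates, drawn as bars over their length (x axis, distance from the centre of the window in kb) with the authors' score as height (y axis, no unit). The shaded band is the 140 kb window. One wide bar with a score near 2 fills most of the band in each list, and lower bars stand at its left.

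The domain was among the widest in the data. It ranked 11th by width of the 1486 regions of replicate 1, 11th of the 1459 of replicate 2 and 12th of the 2279 of the series list. On arm 2L it ranked 4th in all 3 lists, among 241 regions in replicate 1, 243 in replicate 2 and 368 in the series list. Its width was 48.1 times the median region width of replicate 1 (2568.5 bp) and 45.0 times that of replicate 2 (2717 bp). This single region held 4.05% of the bases called on 2L in replicate 1 and 3.85% in replicate 2.

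By score the domain stood less far out. It ranked 110th of 1486 regions in replicate 1 and 107th of 1459 in replicate 2, with scores of 1.98 and 2.03 against list medians of 0.619 and 0.602. Among regions of at least 10 kb, called broad below, it ranked 100th of 300 in replicate 1, where their median score was 1.57. In replicate 2 it ranked 95th of 311 broad regions, with a median of 1.54. Set beside the domains of at least 100 kb only, it was close to the middle. It ranked 14th of 22 in replicate 1, where their scores ran from 1.34 to 2.60 with a median of 2.07. In replicate 2 it ranked 13th of 23, with scores from 1.27 to 2.58 and a median of 2.05. The nub-pdm2 domain was thus ordinary in score for its size class and above the typical broad region.

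**Figure D2:**
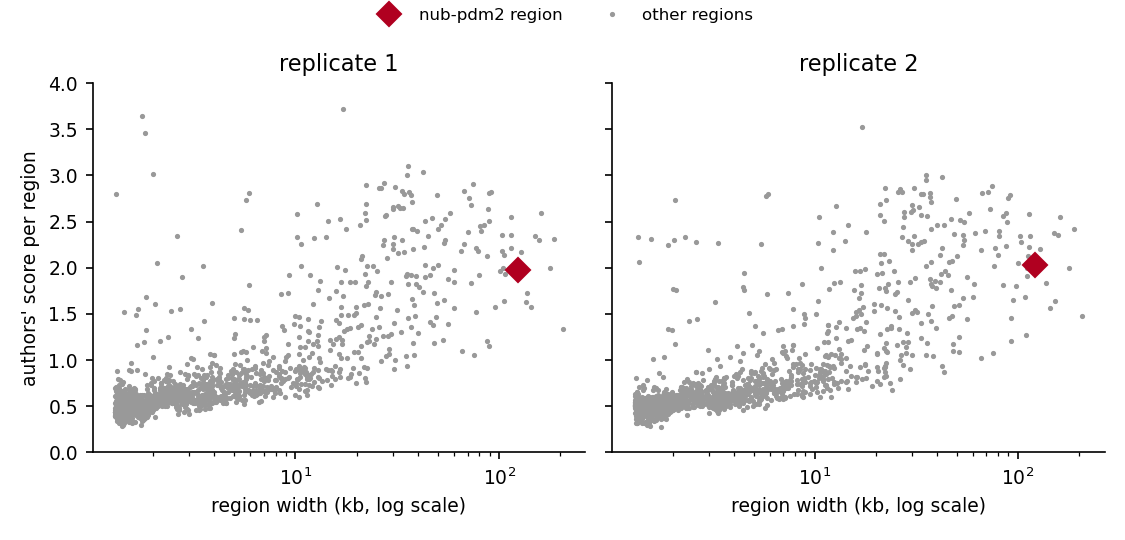
Width (x axis, kb, log scale) and authors' score (y axis, no unit) of each region of replicate 1 and replicate 2, with the nub-pdm2 region as a diamond and the other regions as dots. The diamond lies near the right edge, at 123 kb and 122 kb, and at mid height, at scores of 1.98 and 2.03.

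The second question was how closely the replicates placed the domain. Each replicate's region met the other's, as did 81.3% of all replicate 1 regions and 75.5% of all replicate 2 regions at an overlap of at least 1 bp. Replicate 2's region lay wholly within that of replicate 1, and the shared bases made up 99.0% of those called in either. For the 189 other pairs of broad regions that matched one to one, the median of that share was 99.0%. Among the 14 other such pairs of at least 100 kb the median was 99.8%, and 7.14% of them shared less than the nub-pdm2 pair. For its width, then, the nub-pdm2 pair was among the less closely matched.

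The replicates did not place the 2 ends of the domain equally closely. At the right end, the one with the higher coordinate, the replicates differed by 26 bp. At the left end they differed by 1179 bp, where replicate 1 began further out. The 378 ends of the 189 other broad pairs differed by a median of 94.5 bp. Of these ends, 66 (17.5%) differed by no more than the right end at nub-pdm2, and 20 (5.29%) by at least as much as its left end. On 2L alone, 7 of 68 ends (10.3%) differed by 1179 bp or more, and among the pairs of at least 50 kb 1 of 84 did (1.19%). The left end was therefore one of the less sharply placed ends of wide domains, and the right end one of the more sharply placed. These are descriptions of region lists with 2 replicates, and no test was made.

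**Figure D3:**
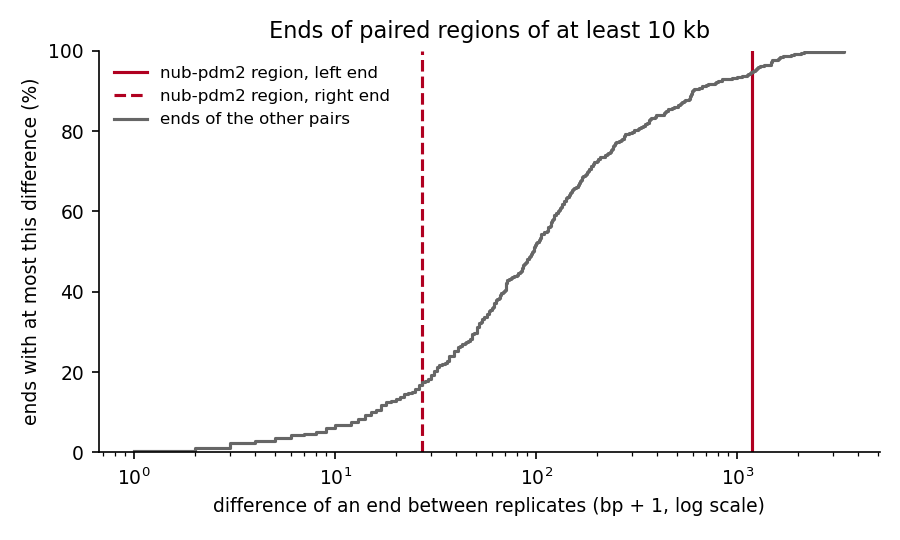
Share of ends (y axis, percent) whose positions in the replicates differ by at most the value on the x axis (bp + 1, log scale). Vertical lines mark the left end (solid, 1179 bp) and right end (dashed, 26 bp) of the nub-pdm2 region, and the grey curve the 378 ends of the other one-to-one pairs of regions of at least 10 kb. The right end lies low on the curve and the left end near its top.

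The series list showed the same unevenness. It extended past the wider replicate region, that of replicate 1, by 1576 bp at the left and by 157 bp at the right. The comparison took 312 ends of 156 other broad domains found as a single region in all 3 lists. Of these ends, 5 (1.60%) reached as far beyond both replicates as the left end here. The median extension was 32.5 bp, with ends that did not pass both replicates counted as no extension. The series-list region contained both replicate regions in 102 of the 156 domains (65.4%). In total, 97.7% of the bases of the series-list region were called in both replicates, and 1733 bp (1.38%) in neither. The series list is not independent of the replicates, and no source used here tells how it was made from them.

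The scores of the replicates differed by 0.055 at nub-pdm2. The median absolute difference over the 189 other broad pairs was 0.044, with quartiles of 0.019 and 0.079, and 62.4% of these pairs differed by less. Among the 14 other pairs of at least 100 kb the median was 0.032 and the upper quartile 0.054, and 78.6% differed by less. For its size class, then, the nub-pdm2 difference was on the larger side. Replicate 1 had the wider nub-pdm2 region and replicate 2 the higher score. Neither order was general. Replicate 1 was wider in 84 of the 189 other broad pairs (44.4%), and replicate 2 had the higher score in 101 (53.4%).

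The domain was a single region in all 3 lists, a trait it shared with many domains of its size but far from all. Of the regions of at least 100 kb, 12 of 22 in replicate 1 (54.5%) and 12 of 23 in replicate 2 (52.2%) were matched by a single region in each of the other lists, nub-pdm2 included.

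Just outside the window, at its left, lay a lower-scoring patch of H3K27me3, called the left patch below. In the series list it was 1 region of 11.3 kb, which scored 0.666 and ran from 12547838 to 12559158. In replicate 2 it was likewise 1 region of 11.3 kb, which scored 0.732 and ran from 12547800 to 12559106. In replicate 1 it was split by 623 bp into a region of 6.93 kb, from 12548374 to 12555307 (score 0.668), and one of 1.52 kb, from 12555931 to 12557447 (score 0.540). The domain outscored the patch in every list, at 1.99 in the series list, 1.98 in replicate 1 and 2.03 in replicate 2. The median scores of all regions were 0.394, 0.619 and 0.602 in the same lists. Only the narrower replicate 1 region of the patch, at 0.540, scored below its list's median. Whether the lower score of the patch goes with its smaller width was not tested. By share of bases, the patch was less alike between replicates than the domain. Its shared bases, 8.45 kb, made up 74.7% of those called in either replicate, against 99.0% for the domain. The same shift of an end lowers this share more in a narrow region than in a wide one. How much of the contrast goes with width was not tested.

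Between the patch and the domain lay sequence that no list called, from 12559159 to 12564709. The whole gap measured 5.55 kb in the series list, 8.84 kb in replicate 1 and 8.36 kb in replicate 2. It was close to the usual spacing next to a broad region, for which the median gap of the other broad regions was 5.46 kb, 5.70 kb and 6.29 kb in the same lists. Both margins of this gap differed between replicates. The right end of the patch differed by 1659 bp between replicates and the left end of the domain by 1179 bp. The outer, left end of the patch differed by 574 bp. The median of 94.5 bp for ends of broad pairs is not a like reference for the patch. Those pairs have regions of at least 10 kb in both replicates, and replicate 1 split the patch into narrower ones.

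To the right, by contrast, the domain bordered a long stretch without a call. The next region lay 371 kb away in the series list, 785 kb away in replicate 1 and 540 kb away in replicate 2. Of the gaps beside other broad regions, 96.2%, 98.8% and 96.1% were shorter in the same lists. Among all gaps on 2L the right-hand gap ranked 11th of 367 in the series list, 4th of 240 in replicate 1 and 8th of 242 in replicate 2. What ended it was a narrow region in each list, and not the same one. These were 1.06 kb at 13061071 to 13062125 in the series list (score 0.352), 1.36 kb at 13475036 to 13476395 in replicate 1 (0.731) and 1.35 kb at 13229411 to 13230758 in replicate 2 (0.417). The gap's length therefore rests on narrow calls that differ between lists. With regions at or above each list's median score only, it was 785 kb in the series list, 785 kb in replicate 1 and 1562.7 kb in replicate 2. The first broad region to the right in the replicates began at 14252939 in replicate 1 and at 14252407 in replicate 2.

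To the left, beyond the left patch, 454 kb without a call followed in every list. The next region out was a compact one of 18.0 kb with a score of 2.39 in the series list. It had 17.7 kb and a score of 2.42 in replicate 1 (12076268 to 12093953), and 17.8 kb and a score of 2.39 in replicate 2 (12076131 to 12093968). The span between that region and the first call at the right measured 0.967 Mb in the series list, 1.38 Mb in replicate 1 and 1.14 Mb in replicate 2. Within it the nub-pdm2 domain held 91.7%, 93.6% and 91.5% of all called bases, and the left patch held the rest. A stretch without a call fell below whatever threshold the authors set, and whether reads can be placed throughout these stretches was not examined.

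**Figure D4:**
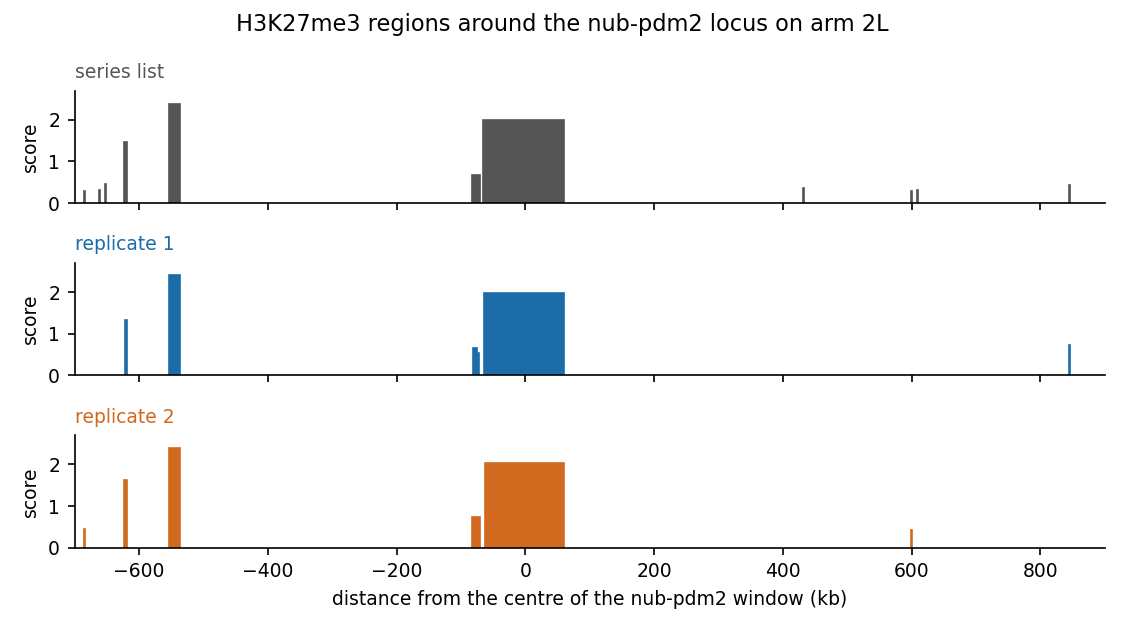
Enriched regions on arm 2L from 700 kb left to 900 kb right of the centre of the nub-pdm2 window (x axis, kb) in the series list and the 2 replicates, with the authors' score as bar height (y axis, no unit). The nub-pdm2 domain and the left patch beside it stand between stretches without a call. These are 454 kb long at the left and 371 to 785 kb long at the right.

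Compared with the rest of 2L, the window was densely called. Its 88.2% in replicate 1 and 87.3% in replicate 2 compare with 13.3% and 13.8% of the whole arm. Against 162 other windows of the same length on 2L it ranked 4th in both replicates and in the series list, with 98.1% of the others lower. Over the 6 major arms, with 856 other windows, 11 were called over a larger share in each replicate and 14 in the series list. Of the other windows on 2L, 86 had no region in replicate 1 and 78 had none in replicate 2, and the highest reached 99.4% and 99.5%. The nub-pdm2 window holds its domain whole, whereas the other windows were laid end to end without regard to where domains begin or end. How far this moved the rank was not tested. Windows called over at least 50% of their length usually held several regions. On 2L, 2 of 12 other such windows held 1 region only in replicate 1, as nub-pdm2 did, and 3 of 13 in replicate 2. This count also depends on where a window is laid. With 20 kb more at each side, the nub-pdm2 window held 2.5 regions per replicate on average. The other windows can cut domains and count pieces at their edges, so the counts are not a like comparison.

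**Figure D5:**
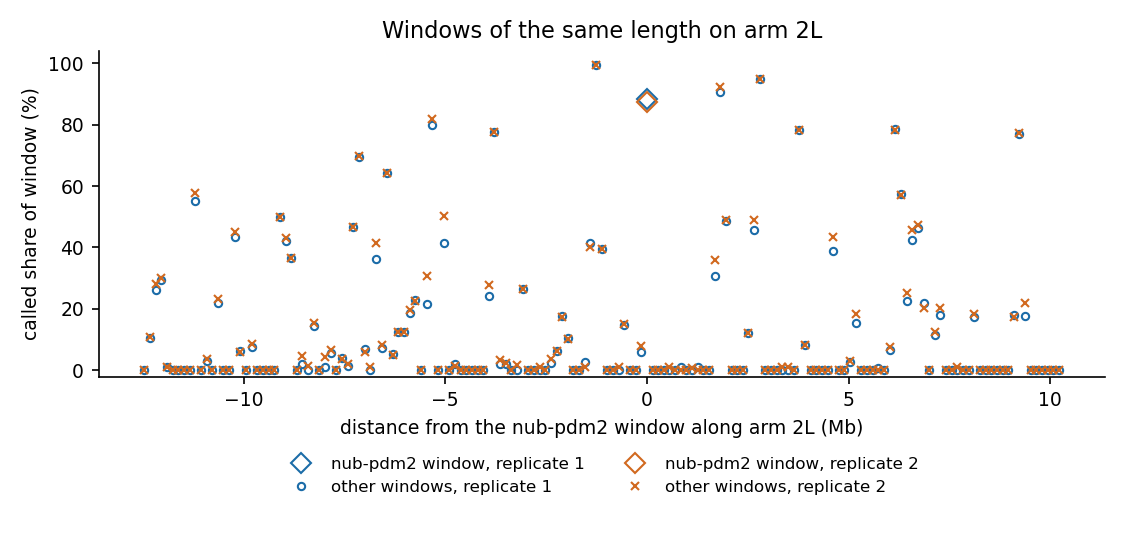
Share of each 140 kb window of arm 2L called as enriched (y axis, percent) by its distance from the nub-pdm2 window (x axis, Mb) in replicate 1 and replicate 2. Diamonds mark the nub-pdm2 window, at 88.2% and 87.3%, and 3 other windows stand above it. The windows next to it are at or near 0 on the right.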

How the data were processed

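The deposited files used were 3 region lists, 1 for each ChIP library and 1 for the whole series, on FlyBase r5 per the file headers. The authors gave 1 positive score per region in the deposited files; no source used here states its scale, the region caller, the threshold or how the series list was made. The aligner Bowtie 0.12.7 appears in the submitters' processing notes. Per the labels, each input served its own ChIP list; input libraries alone were not analysed here. There were 0 columns of per-sample values left unused. No read counts were used, so the depth of each library is unknown.

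All regions overlapping the window were kept, and coordinates are 1-based. Regions matched where they overlapped by at least 1 bp; one-to-one pairs met no other region. The region tables are a single group of 2 replicates, so values are described without a test. Other windows of 140 kb were laid end to end from the locus window on 2L and from the start of each other major arm; partial windows at arm ends were left out. The alternatives were a median score minimum, joining of regions under 1 kb apart, a window 20 kb longer at each side, overlaps of 50%, other sets of windows and each replicate left out. The named regions are those overlapping the window and its neighbours. The members and lists were chosen with earlier results of these data known. The code for overlaps and shares was tested on simulated data and recovered 20 of 20 lists. Python 3.11.15, numpy 2.4.6 and matplotlib 3.10.9 were used.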

Additional observations from a re-analysis of the deposited data

How the results depend on the processing

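Of 36 alternative values, 26 moved by less than the spread between replicates or the limit set for a count. That count does not measure robustness, because many of the alternatives could not have moved. With only 2 replicates, leaving 1 out always shifts a replicate mean by no more than their SD. The score minimum and the joining of near regions changed neither the called share of the window, the number of regions, the score nor the shared bases. Both were bound to leave these values as they were. The region scored above the median of each list, and no neighbouring region lay within 1 kb of it. The region of each replicate was matched in the other under every overlap rule run. A window 20 kb longer at each side takes in the left patch. With it the called share was 73.8% and the regions averaged 2.5 per replicate. The replicates then shared 96.99% of bases, and 95.7% of series-list bases were called in both. The share of other windows that were lower, 98.1%, became 98.8% with the score minimum and 98.7% over the 6 major arms. With 1 replicate left out, the called share ranged from 87.3% to 88.2%, the score from 1.98 to 2.03, the share of series-list bases called from 97.7% to 98.6%, and the right-hand gap from 540 kb to 785 kb. The score minimum lengthened that gap from a replicate mean of 662 kb to 1174 kb, because it dropped 2 narrow regions of replicate 2. The share of other ends at least as loosely placed as the left end, 5.29%, was 1.19% for pairs of at least 50 kb and 10.3% on 2L. The last 2 results and their alternatives were chosen after the data were seen. No paired analysis was possible because only the ChIP samples have a list, which leaves 1 group. The effect of depth was not measured, since it is unknown.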

Other observations

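The regions nearest in width to the nub-pdm2 domain were the same 4 domains in both replicates, found after the widths were seen. Nearest was one on X of 128 kb. Replicate 1 placed it at 20503040 to 20631375 and scored it 2.17, and replicate 2 placed it at 20502946 to 20631325 and scored it 2.20. The others were 115 kb on X from 8616218 (1.96 in replicate 1, 2.02 in replicate 2), 115 kb on 3R from 9670106 (2.35 in both) and 114 kb on X from 17199819 (2.22 in both), with starts given for replicate 1. None of the 4 lies on 2L. The one on X from 8616218 scored slightly below the 1.98 and 2.03 of the nub-pdm2 domain, and the others scored above it in both replicates.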
